A study of Caenorhabditis elegans with 3 samples.

Results

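The genes described here are 10 genes of Caenorhabditis elegans that act between the G1 and S phases of the cell cycle, chosen by name from 19973 protein-coding genes. They are cyd-1, cdk-4, cki-1, lin-35, efl-1, dpl-1, cye-1, lin-23, mcm-4 and pcn-1, and all 10 were found in the Ensembl annotation of WBcel235. Binding of EGL-27 near them was read from chromatin immunoprecipitation and sequencing (ChIP-seq) of whole L2 larvae of mixed sex. All animals were of strain OP177 (unc-119(ed3) III; wgIs177), in which a transgene carries EGL-27 fused at the C-terminus to GFP and FLAG. The 3 biological replicates form a single group, with no other condition. The sources used here do not give the promoter or copy number of the transgene, or how many animals made up a replicate. The binding is taken here to be that of the tagged protein. In whole larvae, strong binding in few cells and weak binding in many cells cannot be told apart.

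A cell leaves G1 when cyclin D with its kinase CDK-4, and then cyclin E, phosphorylate the retinoblastoma-like protein LIN-35. LIN-35 otherwise represses genes of DNA replication through the E2F and DP transcription factors EFL-1 and DPL-1, and CKI-1 blocks the kinases. In the worm, cki-1, lin-35 and lin-23 are known for holding postembryonic cells out of the cycle, while cyd-1, cdk-4 and cye-1 are needed for larval divisions. EGL-27 is related to the MTA proteins of NuRD, a complex that remodels chromatin and removes histone acetylation, and has a GATA-type zinc finger.

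For each gene the window ran from 2000 bp upstream of the 5' end to the 3' end. Every region with its summit there was taken from the authors' reproducible set (1997 regions on ce11, selected by irreproducible discovery rate, IDR) and from their longer pooled list of peaks and background (30000 regions). Each replicate also had a list of its own, of 13245 regions for replicate 1 and 30000 for each of the other two. Signal here means the number the authors attached to a region, with a median of 50.8 in the IDR set (range 34.8 to 378) and 10.7 in the pooled list. It is used to rank regions within a list and not to compare lists. The files hold no read counts, so the sequencing depth is unknown.

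The sequences under 3 of the IDR peaks are shown because pcn-1 and efl-1 carry the strongest 2 peaks of the group and efl-1 and lin-23 share stretches of letters. The sequences are in the direction of the gene, from WBcel235 (RefSeq), and hold no annotated UTR base. In pcn-1 (chrIV:4049619-4049766, minus strand) capitals mark, from left to right, a pair of matches to the cell cycle homology region and 1 match to the E2F consensus, read on the opposite strand. In efl-1 (chrV:16965762-16965905, minus strand) the first capitals mark an E2F match, the last a match to the cell cycle homology region, and the 3 stretches between them letters that recur at lin-23. In lin-23 (chrII:6370164-6370463, plus strand, the 300 bases around the summit) capitals mark those same 3 stretches.
pcn-1: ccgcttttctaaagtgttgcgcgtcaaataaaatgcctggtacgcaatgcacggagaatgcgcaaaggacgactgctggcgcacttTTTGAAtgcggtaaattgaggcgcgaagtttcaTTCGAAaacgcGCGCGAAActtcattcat
efl-1: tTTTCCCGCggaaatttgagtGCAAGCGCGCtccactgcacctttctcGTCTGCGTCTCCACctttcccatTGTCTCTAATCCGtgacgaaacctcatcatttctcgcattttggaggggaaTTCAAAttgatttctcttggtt
lin-23: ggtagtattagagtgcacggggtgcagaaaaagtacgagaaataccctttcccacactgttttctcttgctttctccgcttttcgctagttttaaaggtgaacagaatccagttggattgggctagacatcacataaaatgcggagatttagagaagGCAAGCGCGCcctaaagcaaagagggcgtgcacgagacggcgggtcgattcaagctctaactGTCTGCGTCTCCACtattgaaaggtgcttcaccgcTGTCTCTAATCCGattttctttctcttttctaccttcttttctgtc

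EGL-27 had an IDR peak in the windows of 6 of the 10 genes, pcn-1, efl-1, cye-1, lin-23, mcm-4 and cyd-1, and in none of those of cdk-4, cki-1, lin-35 and dpl-1. Of all protein-coding genes, 9.88% had an IDR peak in the same kind of window. Each of the 6 genes had 1 IDR peak, and each summit was nearer to the 5' end of that gene than to any other protein-coding 5' end. Over all pairs of a gene and an IDR peak in its window, the gene was the nearest in 65.2% of 2250 pairs. The windows of the 10 genes had a median length of 5500 bp, against 4027 bp for all protein-coding genes, so they offered more sequence than usual. Per length, they held 0.906 IDR peaks per 10 kb over 66.2 kb, against 0.199 per 10 kb in the genome. The genes were chosen with earlier results of these data known, so these contrasts are a description with no test. The median signal of the 6 peaks was 63.5, and 4 of them lay above the median of the IDR set.

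**Figure D1:**
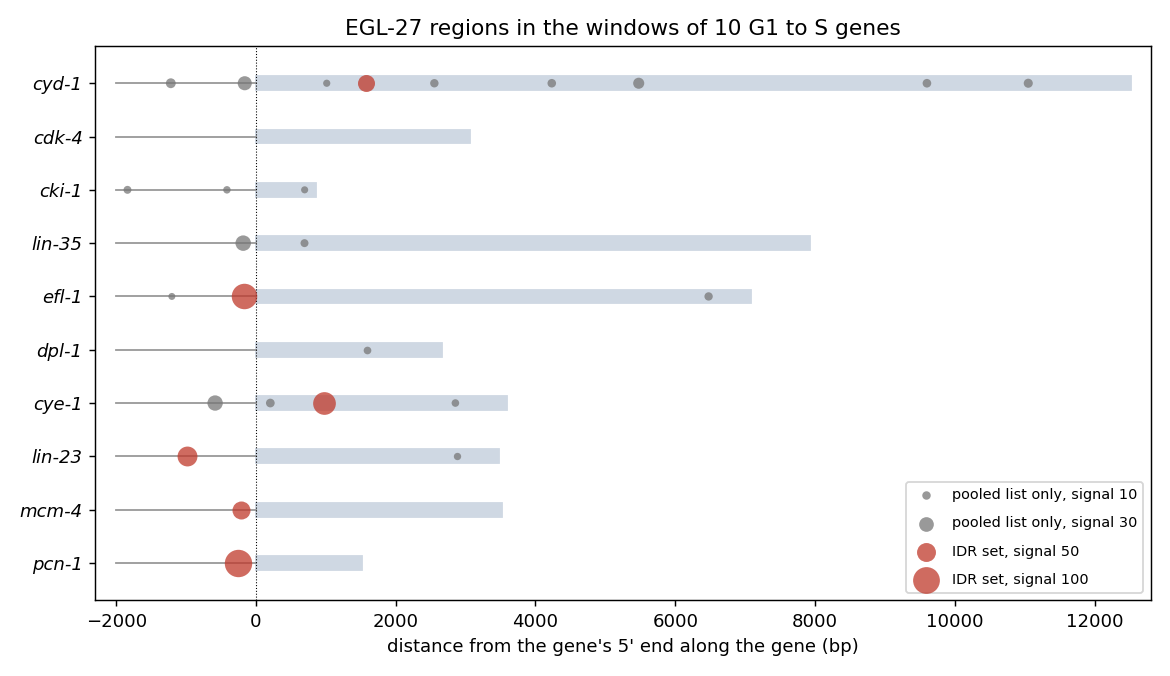
Regions of EGL-27 in the window of each gene, plotted by the distance of the summit from the gene's 5' end in bp (grey line, 2000 bp upstream; pale bar, gene). Red circles are the 6 IDR peaks and grey circles the 20 regions found in the pooled list alone, with an area in proportion to the signal; 4 red circles lie upstream of the 5' end and 2 inside cye-1 and cyd-1.

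In the pooled list, 26 regions had their summit in these windows, in 9 of the 10 genes. This share is to be read against 66.1% of all protein-coding genes with a pooled region, and the density of 3.93 regions per 10 kb against 2.99 in the genome. All 6 IDR peaks were also rows of the pooled list. The other 20 regions had signals from 6.76 to 33.5 with a median of 9.79, and 14 of them lay below the median of the pooled list. They were in introns (8), intergenic sequence (5), coding exons (3), 3' UTRs (2), a 5' UTR (1) and an exon of a noncoding RNA (1). Of these 20, 2 overlapped regions in the lists of all 3 replicates, 7 in those of 2 replicates, 8 in that of 1 replicate and 3 in none.

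**Figure D2:**
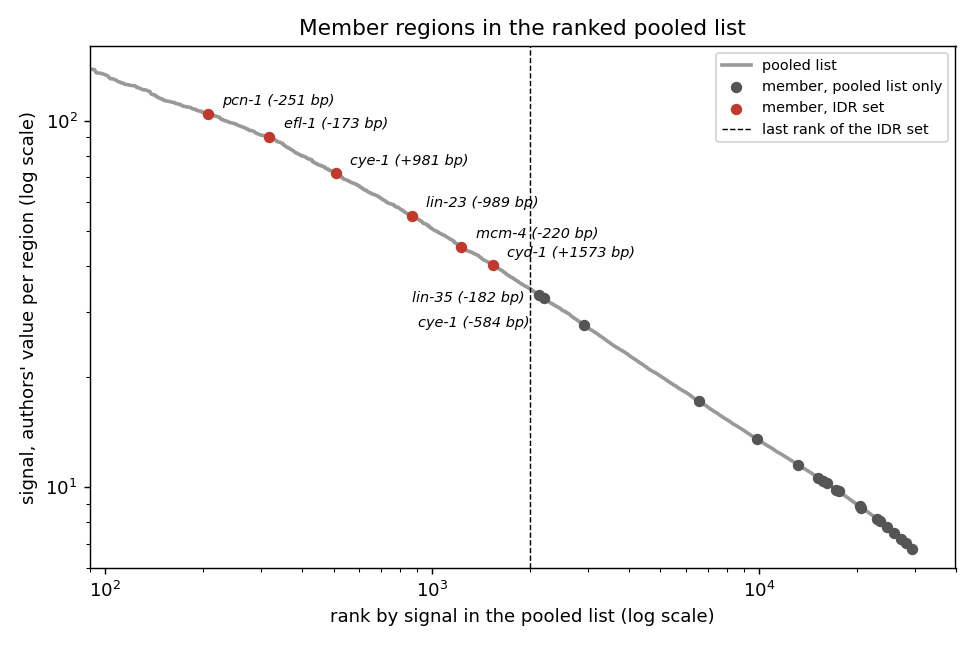
Signal of every pooled region against its rank in the pooled list, both on log scales, with the regions of the 10 genes marked and the last rank of the IDR set (1997) as a dashed line. The IDR peaks (red) run from pcn-1 at rank 206 to cyd-1 at rank 1537, and lin-35 (rank 2132) and the upstream region of cye-1 (rank 2201) stand just beyond the line.

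Among the factors of DNA replication, pcn-1 had the strongest peak of the group. It encodes PCNA, the sliding clamp that holds DNA polymerases on their template. The peak (IV, 4049619 to 4049766) had a signal of 104.6 and rank 206 in the IDR set, with its summit in intergenic sequence at -251 bp from the 5' end. No other protein-coding gene had this summit in its window. In replicates 1, 2 and 3 the overlapping region had signals of 13.2, 36 and 53.4 and ranks of 157, 354 and 222. These ranks lay within the top 1.19%, 1.18% and 0.74% of the replicates' lists, a mean of 1.04% ± 0.256 (SD, n = 3). The spread between replicates was the smallest of the 3 peaks present in every list, and the summits in the replicates stood 14, 32 and 30 bp from the pooled one.

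The other replication factor, mcm-4, encodes a subunit of the helicase that opens origins. Its peak (I, 2321862 to 2322211) had a signal of 45.26 and rank 1228, with the summit at -220 bp from the 5' end. That base is also annotated as 3' UTR of the neighbouring gene Y39G10AR.32. The region was absent from the list of replicate 1 and had ranks of 961 and 1321 in replicates 2 and 3, with signals of 23.1 and 23.5.

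Among the repressors and their partners, efl-1 had an IDR peak, lin-35 a region just below the threshold, and dpl-1 a region of low signal outside the IDR set. The peak of efl-1 (V, 16965762 to 16965905) had a signal of 90.53 and rank 318, with its summit in intergenic sequence at -173 bp. The window of fbxa-90, which starts in the other direction, also holds that summit, at -966 bp from its 5' end. In replicates 1, 2 and 3 the region had signals of 6.23, 43.7 and 40.6 and ranks of 1490, 210 and 445. It thus stood lower in replicate 1, within the top 11.2% of that list, than in replicates 2 and 3 (0.70% and 1.48%), a mean of 4.48% ± 5.88 (SD, n = 3). Summits of the replicates lay 6, 5 and 3 bp from the pooled summit. Another 2 regions of efl-1 were in the pooled list and not in the IDR set. That at -1203 bp (V, 16966703 to 16967052, signal 6.764), in the 5' UTR of fbxa-90, overlapped a region of replicate 3 alone, with a summit 249 bp away. That in an intron at 6477 bp (V, 16959023 to 16959372, signal 9.727) overlapped no region of any replicate.

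LIN-35 is the worm's pocket protein of the retinoblastoma family. The region upstream of lin-35 (I, 5807352 to 5807701) had a signal of 33.46 and rank 2132 of the pooled list, where the IDR set ended at rank 1997 and a signal of 34.8. Its −log10 q-value was the highest of the list (3.65), that is, the lowest q-value, which 2210 pooled regions shared. With all of those regions in place of the IDR set, 7 of the 10 genes had a peak, against 10.8% of protein-coding genes. In replicates 1, 2 and 3 the overlapping region had signals of 8.45, 23.1 and 17.9 and ranks of 569, 960 and 2146, within the top 4.30%, 3.20% and 7.15% of the lists (mean 4.88% ± 2.04, SD, n = 3). In percent this spread was narrower than those of efl-1 and lin-23, which were in the IDR set, but the lists differ in length. By rank itself it was not narrower. Ranks of lin-35 ran from 569 to 2146, those of efl-1 from 210 to 1490 and those of lin-23 from 780 to 2252. The summit of the pooled region was at -182 bp from lin-35 and at -236 bp from vps-51, a gene that starts in the other direction. Summits of the replicates were apart from each other, at -434, -275 and -142 bp from lin-35, and that of replicate 1 lay in the 5' UTR of vps-51. A second region, in an intron of lin-35 at 695 bp (I, 5808229 to 5808578, signal 8.866), overlapped a region of replicate 3 alone.

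DPL-1 is the DP partner of E2F. Its window held 1 pooled region (II, 9171320 to 9171669, signal 8.20, rank 22983), in a coding exon at 1585 bp from the 5' end and present in replicate 2 alone. The −log10 q-value of this region was 0.274. The summit also lies in an intron of T23G7.2, whose 5' end is nearer, at 1454 bp. In the lists of replicates 1, 2 and 3, 2, 2 and 1 regions had a summit in the window, the strongest of each standing 28.1%, 53.7% and 19.5% from the top. These were at 1902, 1584 and -1620 bp, and no position upstream of dpl-1 recurred between replicates. The nearest IDR summit was 17321 bp beyond the window.

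Among the cyclins and their kinase, the IDR peaks lay inside the genes and not upstream of them, and cdk-4 had none. CYE-1 is cyclin E, which with CDK-2 drives entry into S phase. Its IDR peak (I, 6781605 to 6781954) had a signal of 71.94 and rank 508, with the summit in an intron, 981 bp inside the gene. The window of pqn-21 also holds that summit, at -1629 bp from its 5' end. This peak was absent from replicate 1 and had ranks of 774 and 278 in replicates 2 and 3, with signals of 25.6 and 49.8. A region upstream of cye-1 (I, 6780040 to 6780389, at -584 bp) had a signal of 32.87 and rank 2201, just below the IDR set. The summit of this upstream region is nearest to the 5' end of pqn-21, at -64 bp. It was absent from replicate 1, and its ranks of 1388 in replicate 2 and 12550 in replicate 3 were far apart. The other 2 pooled regions of cye-1 lay in coding exons. That at 206 bp (I, 6780830 to 6781179, signal 10.61) was present in replicates 2 and 3, and that at 2854 bp (I, 6783478 to 6783827, signal 8.054) in replicate 3 alone.

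CYD-1 is cyclin D, and its gene had the largest number of regions, 9 pooled regions over the longest window (14527 bp). The IDR peak (II, 12981989 to 12982338) had a signal of 40.32 and rank 1537, the lowest of the 6 IDR peaks. Its summit was in a 5' UTR at 1573 bp from the 5' end of the gene. It was absent from replicate 1, and its rank was 7349 (signal 7.49) in replicate 2 and 969 (signal 27.6) in replicate 3, so that it was among the 1997 strongest regions of replicate 3 alone. Upstream of the gene, a pooled region at -160 bp (II, 12980256 to 12980605) had a signal of 27.69 and rank 2919, with ranks of 3256 and 7015 in replicates 2 and 3. A further upstream region at -1218 bp (II, 12979198 to 12979547, signal 13.54) overlapped regions of replicates 1 and 3. The other 6 lay in introns. The strongest of them, at 5477 bp (12985893 to 12986242, signal 17.14), was present in replicates 1 and 3, with ranks of 5944 and 15055. Those at 2553 bp (12982969 to 12983318, signal 9.843) and 9601 bp (12990017 to 12990366, signal 10.4) overlapped regions of replicates 2 and 3. At 9601 bp the summit of replicate 2 lay 303 bp away. That at 11051 bp (12991467 to 12991816, signal 11.5) was present in replicate 2 alone. No replicate's list overlapped those at 1013 bp (12981429 to 12981778, signal 7.232) and 4233 bp (12984649 to 12984998, signal 10.23). Regions of low signal were thus listed along the whole gene, and none of these intron regions recurred in all 3 lists. The −log10 q-value was 1.62 for the intron region at 5477 bp and from 0.193 to 0.648 for the others, against 3.65 for the IDR peak. The pooled list holds background as well as peaks, so these rows need not be binding.

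CDK-4 is the kinase partner of cyclin D. The window of cdk-4 (X, 13515856 to 13518911 and 2000 bp upstream) held 0 of the 30000 pooled regions. Replicate 1 had no region there, replicate 2 had 1 in an intron (signal 4.35, 59.8% from the top), and replicate 3 had 3, at -743, -221 and 596 bp, with signals of 4.55, 4.65 and 4.95 (65.5% to 73.1% from the top). None of those in replicate 3 overlapped the one in replicate 2. An IDR peak of signal 107.6 stood 1244 bp beyond the 3' end of cdk-4, 4299 bp from its 5' end, and was not counted in the window.

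CKI-1 inhibits cyclin-dependent kinases, and its gene had regions of low signal only, which may be background of the pooled list. The pooled regions stood at -1838 bp (II, 7809227 to 7809576, signal 8.789), -415 bp (7810650 to 7810999, signal 7.771) and 697 bp (7811762 to 7812111, signal 7.041). Their −log10 q-values were 0.327, 0.237 and 0.178. The first was in an exon of the noncoding RNA gene T05A6.15 and the last in the 3' UTR of cki-1. That at -1838 bp overlapped regions of all 3 replicates. The replicates' regions with a summit in that stretch had signals of 3.34, 5.25 and 7.42 at -1868, -1860 and -1647 bp, standing 47.1%, 45.2% and 34.5% from the top of their lists. In replicates 2 and 3 a stronger region (signals 12.9 and 7.8) overlapped it with a summit outside the window. The other 2 pooled regions were found in replicate 3 alone, in the last 10% of its list by rank (91.7% and 98.1% from the top). The nearest IDR summit was 7156 bp beyond the window.

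LIN-23 is the F-box protein of an SCF ubiquitin ligase, and its loss in the worm gives extra cell divisions. The IDR peak of lin-23 (II, 6370139 to 6370488) had a signal of 55.06 and rank 867, with the summit in intergenic sequence at -989 bp, further upstream than the peaks of pcn-1, mcm-4 and efl-1. It was present in all 3 replicates, with signals of 5.40, 25.5 and 19.2 and ranks of 2252, 780 and 1887. It stood within the top 17.0%, 2.60% and 6.29% of the lists, a mean of 8.63% ± 7.48 (SD, n = 3), again lowest in replicate 1. A second region, in the 3' UTR at 2880 bp (II, 6374008 to 6374357, signal 7.495), was found in replicate 2 alone.

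**Figure D3:**
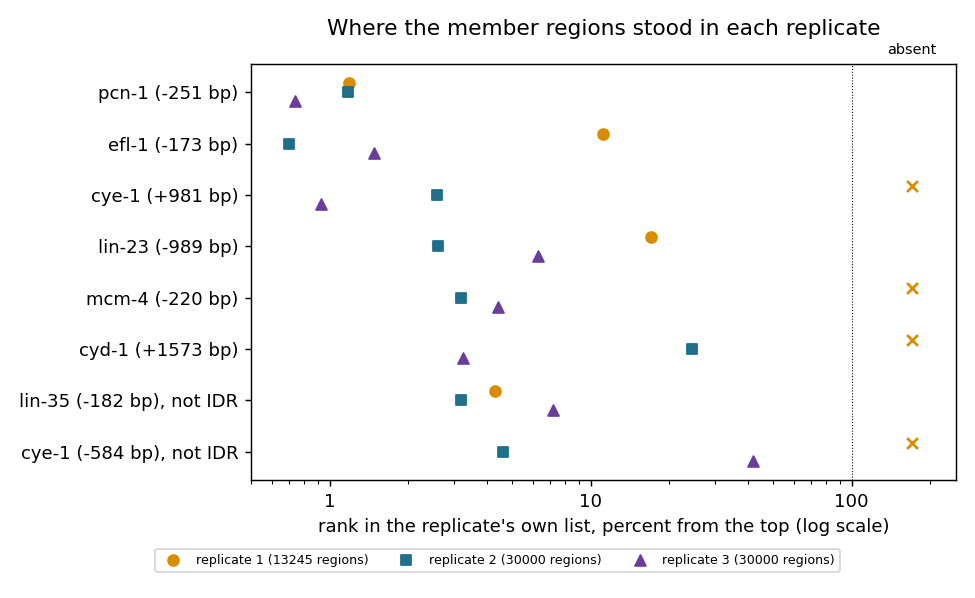
Rank of 8 regions, the 6 IDR peaks and the 2 other regions at the lowest q-value of the pooled list, in each replicate's own list, as percent from the top on a log scale; crosses mark a list that holds no overlapping region. All crosses belong to replicate 1, which lacks cye-1 (both regions), mcm-4 and cyd-1, and pcn-1 lies within the top 1.19% in every replicate.

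Across replicates, 3 of the 6 IDR peaks (pcn-1, efl-1 and lin-23) were present in all 3 lists, and the same is true of 59.7% of the IDR set. All 6 were in the lists of replicates 2 and 3, as were 99.5% and 99.6% of the IDR set, so the differences in presence came from replicate 1, whose shorter list held 60.1% of the IDR set. Peaks of pcn-1 and efl-1 were among the 1997 strongest regions of every replicate, as were 499 IDR peaks in all (25%). Counting genes in the same way, 3, 6 and 6 of the 10 genes had one of the 1997 strongest regions of replicates 1, 2 and 3 in their window. They were pcn-1, efl-1 and lin-35 in replicate 1, those and cye-1, lin-23 and mcm-4 in replicate 2, and the 6 genes with an IDR peak in replicate 3. The mean over replicates was 5 ± 1.73 (SD, n = 3). For all protein-coding genes the shares were 9.42%, 9.89% and 9.42%. With the IDR peaks present in both remaining lists, 6 genes had a peak without replicate 1, 3 without replicate 2 and 3 without replicate 3. The replicates entered the IDR set, so their overlap with it is no independent measure.

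The peaks of pcn-1 and efl-1 were also narrow. They spanned 148 and 144 bp, and the other 4 IDR peaks of the group 350 bp, the median width of the set. In the whole IDR set, 390 regions were narrower than 350 bp, down to 88 bp. The median signal was 103 for those narrower regions and 45.9 for the 1587 regions of 350 bp. The sources used here do not say how the width was set.

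The genes most like pcn-1 in their ranks over the 3 replicates were looked for among 1193 genes. These were genes whose strongest IDR peak in the window was present in every list. By Euclidean distance in percent rank, the nearest were hmg-1.2 and C18F10.7, which share 1 peak (signal 101, distance 0.209), and nhr-58 (signal 88.3, distance 0.430). The summit of that peak was at -99 bp from hmg-1.2 and at -1930 bp from C18F10.7, and that of nhr-58 was at -66 bp. Their ranks were within the top 1.36%, 1.28% and 0.793% for hmg-1.2 and 1.37%, 1.38% and 1.07% for nhr-58 in replicates 1, 2 and 3. Only 3 samples underlie this likeness.

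Letters known from cell cycle promoters were searched within 100 bp of the summits, on both strands, as a description. The E2F consensus (TTTCCCGC, TTTCGCGC, TTTGCCGC or TTTGGCGC) was present at 3 of the 6 IDR peaks, those of pcn-1, efl-1 and mcm-4, and at 6.46% of all IDR peaks. The region upstream of cye-1 held 2 such matches, at 58.5 and 77.5 bp from its summit towards the gene. In pcn-1 the match stood at 66.5 bp, in mcm-4 at 92.5 bp and in efl-1 at -52.5 bp from the summit along the gene. In promoters cut from 250 bp before to 50 bp after the 5' end, the consensus was found in 4 of the 10 genes (efl-1, pcn-1, cyd-1 and mcm-4), against 4.69% of all protein-coding genes. The cell cycle homology region (TTTGAA or TTCGAA), a short element bound by the DREAM complex, was present at the same 3 IDR peaks and at 35.7% of all. It was common in promoters, in 8 of the 10 genes and 68.9% of all. GATA letters (TGATAA) were found at none of the 8 summits shown by rank in each replicate, and at 15.9% of IDR peaks. The GC box (GGGCGG), the E-box (CACGTG) and AP-1 letters (TGACTCA) were also at none of the 8, against 8.96%, 9.11% and 2.40% of IDR peaks. GA repeats (GAGAGA) were at the IDR peak of cyd-1 and at the upstream region of cye-1, and at 49.3% of IDR peaks. The GC content around the 6 IDR summits ran from 36.8% at mcm-4 to 48.8% at cye-1 and lin-23, with a median of 44.3% for the IDR set and 35.4% for the genome.

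**Figure D4:**
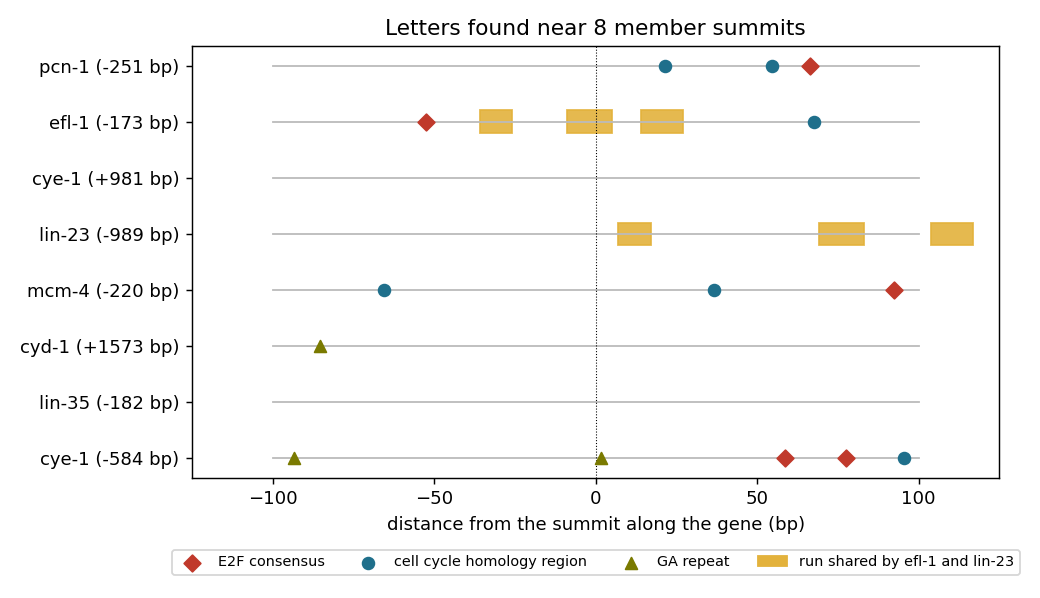
Position of the letters searched around 8 summits, in bp from the summit along the gene, with the gene and the place of the summit from its 5' end on the vertical axis. E2F matches (diamonds) lie within 100 bp of the summits of pcn-1, efl-1, mcm-4 and the upstream region of cye-1, and yellow bars mark the 3 runs that efl-1 and lin-23 share, of which the last of lin-23 ends 116 bp from its summit.

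The peaks of efl-1 and lin-23, on different chromosomes, shared 3 runs of 10 or more letters in the same order and on the same strand relative to the gene, as printed above. The longest, gtctgcgtctccac, had 14 letters and crossed the summit of efl-1, from -9 to 4 bp. At lin-23 it lay from 69 to 82 bp from the summit. The run tgtctctaatccg, of 13 letters, followed it in both genes, from 14 to 26 bp at efl-1 and from 104 to 116 bp at lin-23. The run of 10 letters (gcaagcgcgc) came first, from -36 to -27 bp and from 7 to 16 bp, so the spacing differed between the genes. The sequence of pcn-1 shared no run of 10 letters with either. Only the 3 printed sequences were compared in this way, so runs shared with the peaks of cye-1, mcm-4 or cyd-1 were not looked for.

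Other genes of the same pathway were counted from 5 lists of 68 genes, all matched by symbol and also chosen with earlier results known. Of these, 15 (22.1%) had an IDR peak in the window, against 9.88% of protein-coding genes, and 54 (79.4%) had a pooled region, against 66.1%. Their median window was 4652 bp, against 4027 bp for all protein-coding genes. For 7 of the 16 pairs of a gene and an IDR peak the gene had the nearest 5' end, and the other 9 peaks stood closer to a neighbour. Over all protein-coding genes, the gene was the nearest in 65.2% of pairs, a higher share. Counting a summit only for the nearest 5' end, 7 of the 68 genes had a peak, against 6.56% of protein-coding genes. The group with the highest share was that of E2F and DREAM subunits, the partners of LIN-35, EFL-1 and DPL-1, of which 4 of 6 had an IDR peak. The window of lin-54, which encodes the DNA-binding subunit of DREAM, held a peak of signal 189.9 at -366 bp that is nearest to the ribosomal protein gene rpl-12 (-27 bp). The core subunit gene lin-9 had peaks of 92.8 at -134 bp and 42.37 at -1261 bp, the latter nearest to unc-32. Peaks of lin-53 (signal 74.07, at -224 bp), which encodes a histone-binding protein, and lin-37 (35.26, at -1609 bp, nearest to ZK418.5) completed this group. The summit at lin-53 was almost as close to nra-2, at -243 bp. In this group only lin-9 and lin-53 had a peak nearest to their own 5' end, and efl-2 and lin-52 had none in the window.

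Among further cyclins, kinases and their regulators, 4 of 17 genes had an IDR peak. They were fzr-1, an activator of the anaphase-promoting complex (signal 81.74, at -1796 bp, nearest to sqv-8), the inhibitory kinase gene wee-1.3 (49.91, at -381 bp), cdk-7 of the CDK-activating kinase (40.16, at -4 bp) and the phosphatase gene cdc-14 (39.97, at -293 bp). Replication licensing and firing gave 2 of 20 genes, close to the share of all protein-coding genes. These were cdc-6, the loader of the MCM helicase (71.2, at -284 bp, nearest to acin-1), and the kinase gene cdc-7 (36.06, at -1447 bp, nearest to vpr-1). The other subunit genes of the helicase, mcm-2, mcm-3, mcm-5, mcm-6 and mcm-7, had no IDR peak in the window. DNA synthesis gave 3 of 16 genes. The genes rfc-4 (54.32, at -169 bp) and rfc-3 (35.73, at -1891 bp, nearest to prcc-1) encode subunits of the clamp loader that places PCNA on DNA, and pole-2 (62.32, at -1351 bp, nearest to snrp-3) a subunit of DNA polymerase epsilon. The summit at rfc-4 lies in an exon of the microRNA gene cel-mir-5549 and stands at -372 bp from eef-1A.1. Of the 9 ubiquitin ligase genes, sel-10 (44.78, at -154 bp), another F-box protein, and rbx-1 (40.55, at -1888 bp, nearest to ztf-9), the RING subunit of SCF ligases, had a peak.

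**Figure D5:**
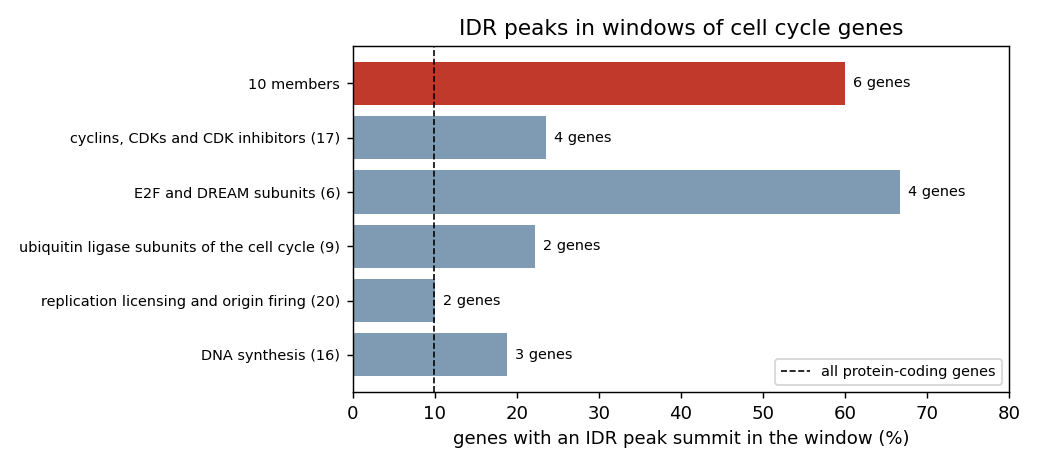
Percent of genes with an IDR peak summit in the window, for the 10 genes and for 5 lists of other cell cycle genes (number of genes in brackets), with the share of all protein-coding genes (9.88%) as a dashed line. The 10 genes (6 with a peak) and the E2F and DREAM subunits (4 of 6) have the longest bars, and replication licensing (2 of 20) is at the line. A peak is counted for each window that holds it, also where the 5' end of a neighbour is nearer.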

How the data were processed

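EGL-27 was profiled by ChIP-seq in 3 replicates. Per the labels, the authors made a list of peaks and background from each replicate and from the pooled data, and selected the optimal IDR set from these. The sources used here do not name the aligner, the caller or the threshold. Of the authors' columns, the deposited signal (scale not named), the deposited −log10 q-value and the summit offset were used. No header names these columns, and they were read by the narrowPeak layout. Lists on ce11 were used. Those on ce10 were not used, since no annotation of that build was at hand.

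Regions were placed on Ensembl release 115 (WBcel235, the same assembly) with Python 3.11.15 and pandas 2.3.3. A replicate was said to hold a region when its list overlapped it by 1 bp or more, and the strongest overlapping region gave the value. Letters were searched up to 100 bp from a summit in both directions. Placement was tested on simulated regions. With 1 group no test was made, and counts are set beside those of all protein-coding genes. Those counts share the windows of neighbouring genes. The genes named, the pathway lists and the letters were chosen with earlier results of these data known. The stretch shared by efl-1 and lin-23 and the comparison of widths were chosen after the values were seen. Named are all 10 genes, pathway genes with an IDR peak, the nearest 5' ends, and the genes closest to pcn-1 in rank.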

Additional observations from a re-analysis of the deposited data

How the results depend on the processing

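The 10 genes were few and 1 list decided much of the count. Requiring presence in all 3 replicate lists left 3 genes with 3 peaks (pcn-1, efl-1 and lin-23) and 6.07% of protein-coding genes. Leaving out 1 replicate and keeping the IDR peaks present in both others gave 3 to 6 genes, 3 to 6 peaks and 6.09% to 9.78% of protein-coding genes, with 3 genes when replicate 2 or replicate 3 was left out. These were the same 3 genes, because both settings still required presence in replicate 1, which held 60.1% of the IDR set. They therefore do not show how much replicates 2 and 3 mattered. IDR was not recomputed. With the gene body alone, 2 genes (cyd-1 and cye-1) had 2 IDR peaks and 15 pooled regions, and 2.38% of protein-coding genes a peak, since upstream sequence was then left out. Counting a summit only for the nearest 5' end kept all 6 genes and lowered the share of protein-coding genes to 6.56%. The stronger 50% of the IDR set kept 4 genes (cye-1, efl-1, lin-23 and pcn-1), with 5.25% of protein-coding genes. A window of 1000 bp before and 200 bp after the 5' end, chosen after seeing the data, kept 4 genes (efl-1, lin-23, mcm-4 and pcn-1), with 6.04%. The counts with upstream limits of 1000 and 500 bp, with any overlap, and with all pooled regions at the lowest q-value (7 genes) were within 1.5 times those reported. Presence of 3 peaks in every list was the same with summits at most 100 bp apart and with an overlap of 50%, and 2 peaks remained when only the 1997 strongest regions of each list were used. No paired analysis was possible because there is 1 group. Signals hold no counting error, and regions below the last rank of each list are unknown.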

Other observations

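The longest stretch shared by efl-1 and lin-23 was looked for in the whole genome. Its 14 letters occurred at 34 places on either strand, of which 18 (52.9%, those of efl-1 and lin-23 included) were in a pooled region of EGL-27, where pooled regions cover 10.1% of the genome. At 6 of the places an IDR summit stood within 100 bp, 17.6% of the places, with those of efl-1 and lin-23 again included, and those 6 peaks had a median signal of 50.2. The run of 13 letters occurred at 4 places, 3 of them in pooled regions, those of efl-1 and lin-23 included. The run of 10 letters occurred at 929 places, of which 9.58% were in pooled regions, close to the share of the genome those regions cover. Of the same places, 2.8% were within 100 bp of an IDR summit. The share of the genome that near to an IDR summit was not computed, so neither this 2.8% nor the 17.6% above can be read against it. A core of the longest stretch, CTGCGTCTC, was found within 100 bp of 296 of 1997 IDR summits (14.8%) and in 2.93% of promoters of protein-coding genes (250 bp before to 50 bp after the 5' end, a longer window). Besides efl-1 and lin-23, the region upstream of cye-1 held it, at -28 bp from its summit. The core was chosen after the sequences were seen, and these shares are a description with no test.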
